A study of Mus musculus with 15 samples.

Results

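The 5 measured arms of the miR-200 family (mmu-miR-200a-3p, mmu-miR-200b-3p, mmu-miR-200b-5p, mmu-miR-200c-3p and mmu-miR-141-3p), with mmu-miR-205-5p and mmu-miR-375-3p, were followed in small RNA of Kupffer cells, macrophages that live in the liver. They were taken by name from the tables and make up 7 of the 248 mature mouse miRNAs listed; the prefix mmu is left out from here on. Libraries came from wild-type C57BL/6J mice (wt) and from obese ob/ob mice, in which leptin is not functional, at 9 weeks (4 wt and 3 ob/ob libraries) and at 14 weeks (4 and 4). The labels name no background strain for ob/ob, no sex, no diet and no gate. Nor do they tie a replicate to an animal of its own, and p-values then speak of the spread among libraries only, which may be technical. The series title names the antioxidant response of liver macrophages in obesity as its subject.

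The miR-200 family is known as a marker of epithelial cells, where it holds down the transcription factors Zeb1 and Zeb2 and so maintains the epithelial state. miR-205 works beside it in stratified and glandular epithelia, and miR-375 is best known from pancreatic islet and neuroendocrine cells and from gut epithelium. In the liver, epithelial RNA of this kind is known from bile ducts. miR-200a and miR-141 have also been reported, in other cell types, to lower Keap1, the adaptor that sends the antioxidant transcription factor Nrf2 (gene Nfe2l2) to degradation. Macrophages are known for other miRNAs, among them miR-142 and miR-511. In these libraries miR-142a-5p had group means of 2415 to 3653 RPM (reads per 1000000 reads) and miR-511-3p of 77.9 to 159 RPM. miR-142a-3p, the other arm, averaged 0.105 (wt) and 0.0887 RPM (ob/ob) at 9 weeks, and 0.0211 and 13.5 RPM at 14 weeks. The endothelial marker miR-126a-5p had higher group means than these, of 31868 to 46882 RPM. Its other arm, miR-126a-3p, averaged 2943 (wt) and 1580 RPM (ob/ob) at 9 weeks, and 2933 and 2035 RPM at 14 weeks. In the ob/ob libraries of 14 weeks miR-126a-3p ranged from 0 to 3733 RPM. The purity of the cells was not tested.

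The mature sequences show how closely the members are related. Capitals mark the seed, bases 2 to 8 counted from the 5′ end, which pairs with target RNAs. Sequences are from RefSeq (GRCm38.p6), which gave 6 of the 7 members.
miR-200b-3p: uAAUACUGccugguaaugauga
miR-200c-3p: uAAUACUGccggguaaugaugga
miR-200a-3p: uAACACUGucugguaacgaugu
miR-141-3p: uAACACUGucugguaaagaugg
miR-200b-5p: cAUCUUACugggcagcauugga
miR-205-5p: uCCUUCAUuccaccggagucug
The 3p arms form 2 seed groups, AAUACUG in miR-200b-3p and miR-200c-3p and AACACUG in miR-200a-3p and miR-141-3p. The groups differ in the seed by the single change C4U, read from miR-200a-3p to miR-200b-3p. Within the second group, miR-200a-3p and miR-141-3p differ only by C17A and U22G, outside the seed, so both values depend on how reads were assigned to them (not given in the sources used here). Within the first group the differences over the 22 shared positions are U11G and A22G, from miR-200b-3p to miR-200c-3p.

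Seed groups and genomic pairs cross. On GRCm38, Mir200b (chr4:156055681-156055750) and Mir200a (chr4:156054896-156054985) lie 695 bases apart on the minus strand, within the gene Ttll10 and outside its exons. Mir200c (chr6:124718322-124718390) and Mir141 (chr6:124717914-124717985) lie 336 bases apart on the minus strand, within the noncoding gene Gm15884. Mir205 (chr1:193507463-193507530, minus strand) overlaps an exon of the long noncoding RNA 4631405K08Rik. Mir375 (chr1:74900658-74900721, minus strand) overlaps no annotated gene, and the nearest protein-coding gene, Cfap65, is 1350 bases away.

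All 7 members were low in these cells. By mean RPM over the 15 libraries miR-141-3p ranked 82nd of 248 with 41.1 RPM and miR-200b-3p 95th with 17.8 RPM. miR-200a-3p (4.20 RPM) and miR-200c-3p (1.70 RPM) ranked 132nd and 158th. miR-375-3p, miR-205-5p and miR-200b-5p had means of 0.423, 0.340 and 0.107 RPM and ranked 196th, 207th and 233rd. The 5 family arms together made up 0.0140% to 0.0349% of the RPM listed in a library.

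Depth, estimated from the RPM that 1 read adds, was 9.08 to 98.1 M reads (M, 1000000) per library. It was higher in every ob/ob library than in every wt library of the same age, at 25.9 to 33.9 M against 13.4 to 22.8 M at 9 weeks and at 44.0 to 98.1 M against 9.08 to 39.0 M at 14 weeks. The RPM of the 248 listed miRNAs summed to 147387 in wt replicate 1 at 14 weeks, the lowest, and to as much as 358621 in the others. Results are therefore given as deposited and after rescaling, in which each library is divided by its median ratio to the average library of that age. As deposited, the median log2 difference of ob/ob minus wt over all miRNAs tested was -0.51 at 9 weeks (179 miRNAs) and 0.20 at 14 weeks (171 miRNAs), and both were near 0 after rescaling.

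miR-141-3p was the most abundant member and the only tested family arm that passed the test, as higher in ob/ob cells. The other tested arms also had positive log2 differences at 14 weeks as deposited, of 0.31 to 0.51, which did not pass. At 14 weeks wt libraries held 14.5, 24.6, 26.0 and 28.8 RPM in replicate order, and ob/ob libraries 27.9, 63.9, 68.5 and 64.7 RPM. Of the ob/ob libraries, 3 lay far above all wt libraries, while ob/ob replicate 1 lay within the wt range. The group means were 23.5 ± 6.23 (SD, n = 4) and 56.2 ± 19.0 RPM (SD, n = 4), a log2 fold change of 1.20 ± 0.36 (SE) on the log2(RPM + 0.5) scale with a 95% interval of 0.40 to 2.0. This passed the test narrowly (limma, Benjamini-Hochberg adjusted p = 0.0495), as 1 of the 4 members tested. Over all miRNAs tested at 14 weeks 15.2% passed in either direction and 11.7% were higher.

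The miR-141-3p difference was positive under each setting given here, and its size and p both varied. After rescaling it was 0.99 ± 0.31 (adjusted p = 0.0457, limma), where 28.6% of all miRNAs passed and 15.5% were higher, and with a further correction for GC content 0.74 ± 0.32 (adjusted p = 0.124, limma). Leaving out ob/ob replicate 1 gave 1.51 (adjusted p = 0.00850, limma), and leaving out any of the other 7 libraries raised the adjusted p to as much as 0.142 and ended the call. It also ended with a pseudocount of 0.1 (adjusted p = 0.0534, limma), without the robust fit (0.0575) and without a filter on low values (0.0528). The libraries of 14 weeks were divided over 2 lanes. In lane 1 (replicates 1 and 2) the log2 difference was 1.14 ± 0.80 (adjusted p = 0.657, limma, where 0.578% of all miRNAs passed), and in lane 2 (replicates 3 and 4) it was 1.27 ± 0.18 (adjusted p = 0.0152, limma, where 28.5% passed).

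At 9 weeks miR-141-3p was 43.1, 27.6, 33.1 and 44.6 RPM in wt and 34.7, 55.7 and 59.1 RPM in ob/ob libraries. The groups overlapped through ob/ob replicate 1. The means were 37.1 ± 8.12 (SD, n = 4) and 49.8 ± 13.2 RPM (SD, n = 3), a log2 fold change of 0.41 ± 0.27 that did not pass the test (adjusted p = 0.256, limma; 95% interval -0.20 to 1.02). None of the 4 tested members passed at 9 weeks, where 37.4% of all miRNAs tested did, 5.03% as higher and 32.4% as lower in ob/ob. Relative to the other miRNAs of the same libraries, miR-141-3p was higher also at this age: after rescaling, wt libraries held 22.7 to 38.3 and ob/ob libraries 41.8 to 74.1 rescaled RPM, without overlap, as did 33.5% of all listed miRNAs and 16.1% as higher. That difference of 0.91 ± 0.26 passed the test (adjusted p = 0.0435, limma), as did 21.5% of all miRNAs tested on the rescaled values, 11.3% of them as higher. With the GC correction it was 0.76 ± 0.27 (adjusted p = 0.0741, limma).

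**Figure D1:**
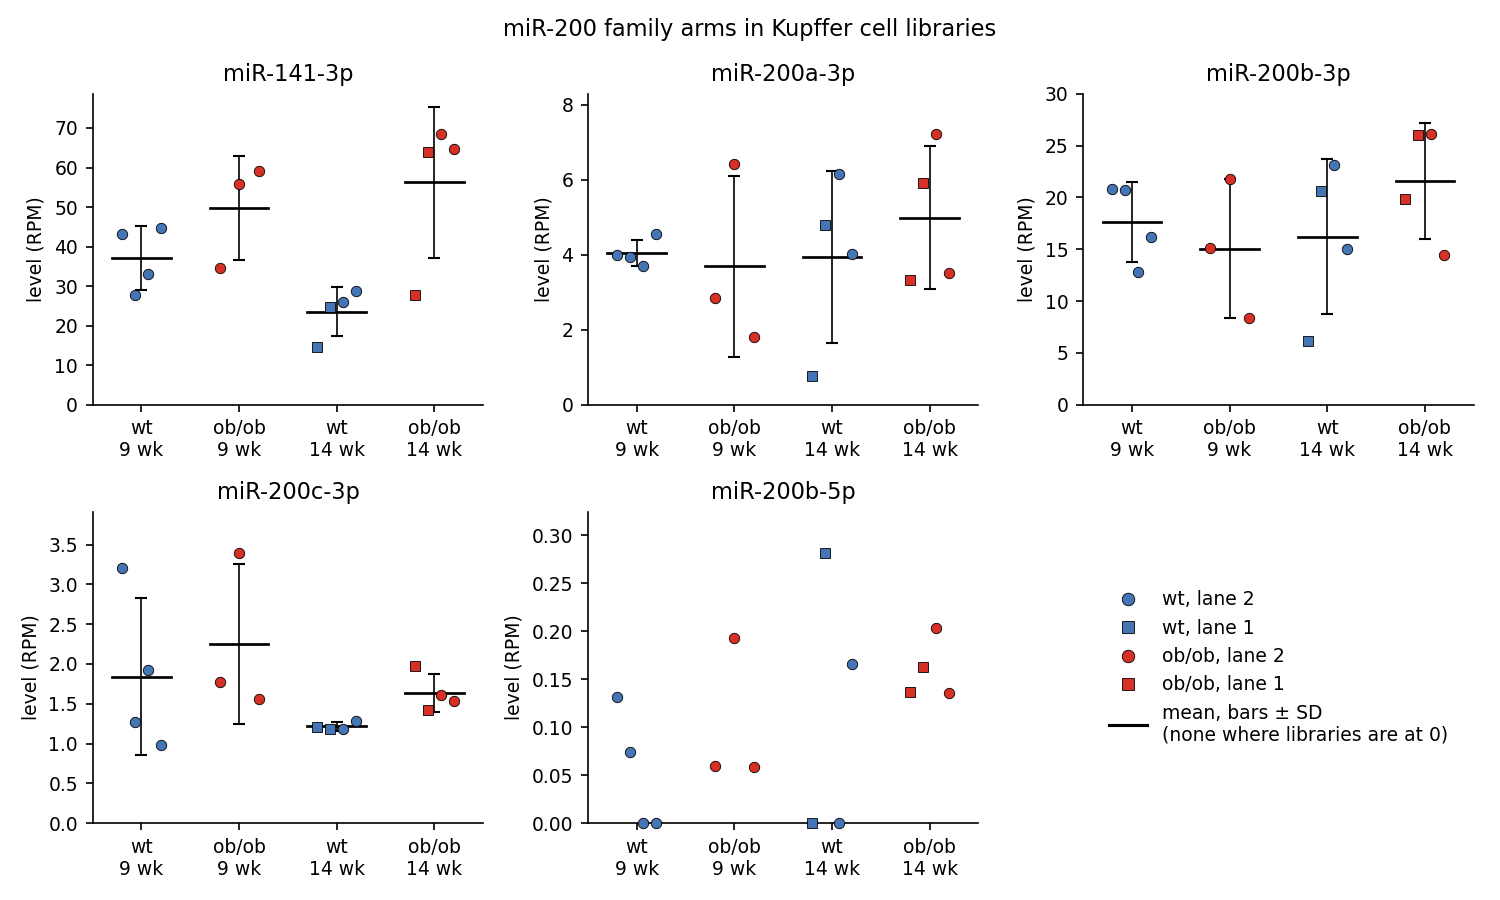
Level of each miR-200 family arm in RPM (vertical axes, starting at 0) in every library of the 4 groups. Lines and bars give the mean ± SD, except for miR-200b-5p, which is listed at 0 in some libraries. miR-141-3p reached 63.9 to 68.5 RPM in 3 of the 4 ob/ob libraries of 14 weeks, above all wt libraries, and the other arms overlapped between genotypes at both ages, apart from miR-200c-3p at 14 weeks.

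The order of the group means of miR-141-3p was ob/ob at 14 weeks (56.2 RPM), ob/ob at 9 weeks (49.8 RPM), wt at 9 weeks (37.1 RPM) and wt at 14 weeks (23.5 RPM). Every pair of neighbours in this order overlapped in its libraries. Ages were deposited as separate tables, so levels across ages are given side by side and were not tested against each other. The ob/ob difference was larger at 14 than at 9 weeks by 0.79 ± 0.47 as deposited (adjusted p = 0.281, limma) and by 0.076 ± 0.43 after rescaling (adjusted p = 0.953, limma), so a change of the miR-141-3p effect with age was not shown. Of all 187 miRNAs tested for such a difference 0.0% passed in limma, with 48 at an unadjusted p under 0.05.

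miR-200c-3p, the partner of miR-141-3p on chromosome 6, was more than 10 times rarer. At 14 weeks wt libraries held 1.21, 1.18, 1.18 and 1.29 RPM and ob/ob libraries 1.98, 1.42, 1.61 and 1.53 RPM. The groups did not overlap, which was so for 23.8% of all listed miRNAs and, as higher in ob/ob, for 18.1%. The log2 difference was small, 0.31 ± 0.20 (adjusted p = 0.339, limma; 95% interval -0.13 to 0.75), and the rescaled groups overlapped (1.02 to 2.10 in wt against 1.22 to 1.67 in ob/ob). At 9 weeks wt libraries ranged from 0.979 to 3.21 RPM and ob/ob libraries from 1.56 to 3.40 RPM, with a log2 difference of 0.26 ± 0.38 (adjusted p = 0.605, limma).

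miR-200b-3p and miR-200a-3p, the pair on chromosome 4, passed the test at neither age. At 14 weeks miR-200b-3p was 6.17, 20.6, 23.1 and 15.04 RPM in wt and 19.8, 26.0, 26.1 and 14.4 RPM in ob/ob libraries. miR-200a-3p was 0.771, 4.79, 6.16 and 4.03 RPM in wt and 3.31, 5.93, 7.22 and 3.51 RPM in ob/ob. For both, wt replicate 1 was the lowest library of the age and the other wt libraries lay among the ob/ob libraries. The log2 differences were 0.51 ± 0.41 for miR-200b-3p (adjusted p = 0.448, limma; 95% interval -0.41 to 1.44) and 0.48 ± 0.51 for miR-200a-3p (adjusted p = 0.592, limma; 95% interval -0.67 to 1.62). Both intervals include the log2 fold change of 1.20 found for miR-141-3p.

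At 9 weeks the deposited means of the pair were slightly lower in ob/ob. miR-200b-3p was 17.6 ± 3.87 RPM in wt (SD, n = 4) and 15.1 ± 6.73 RPM in ob/ob (SD, n = 3), a log2 difference of -0.29 ± 0.34 (adjusted p = 0.524, limma). miR-200a-3p was 4.05 ± 0.359 and 3.69 ± 2.42 RPM, a difference of -0.27 ± 0.36 (adjusted p = 0.575, limma). Both differences turned positive after rescaling, at 0.20 for miR-200b-3p and 0.17 for miR-200a-3p, so no direction is given for the pair at this age.

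**Figure D2:**
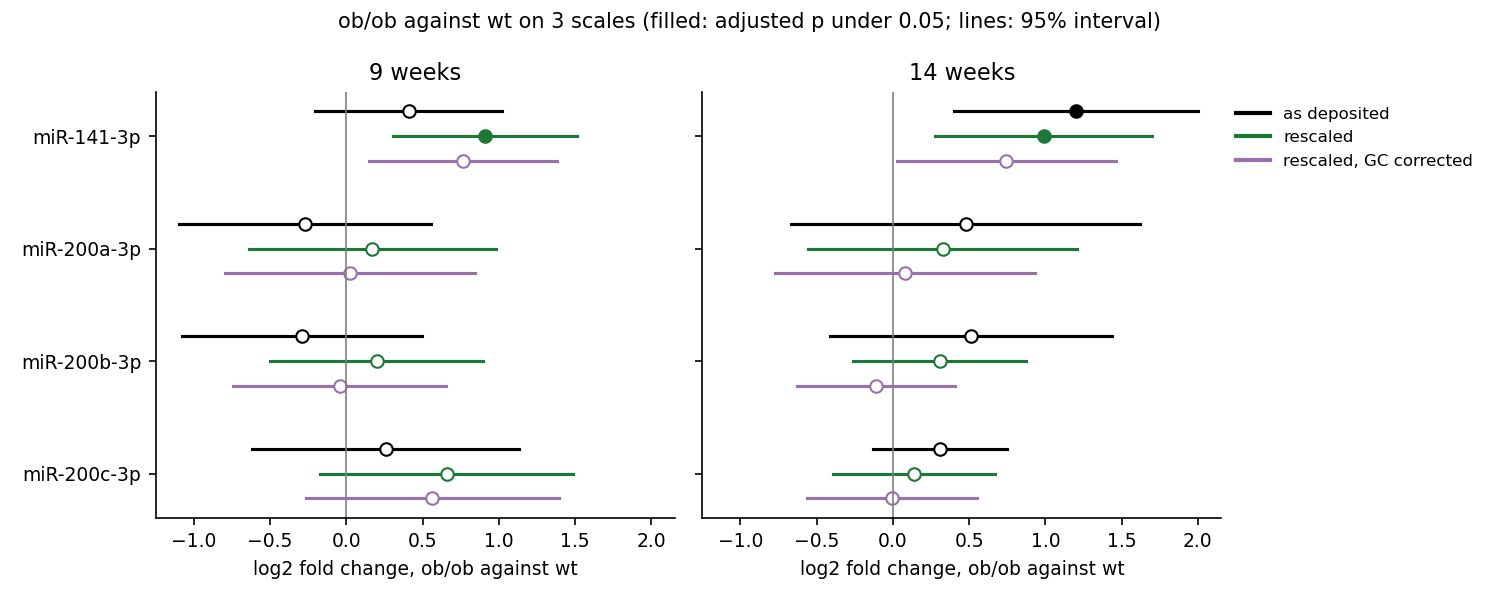
Log2 fold change of ob/ob against wt (horizontal axis, log2(RPM + 0.5) scale) for the 4 tested miR-200 family arms, with 95% intervals as lines, at 9 and 14 weeks and on 3 scales. Filled points passed the adjusted p threshold of 0.05: miR-141-3p at 14 weeks as deposited (1.20) and rescaled (0.99) and at 9 weeks rescaled (0.91), and no other arm on any scale.

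A ratio of RPM within a library does not depend on how the library is scaled. The tested log2 ratios, with 0.5 RPM added to both members, do depend on it where a member is near 1 RPM. The ratio of miR-200a-3p to miR-200b-3p, neighbours with different seeds, was similar in all groups, with medians of 0.236 (wt) and 0.216 (ob/ob) at 9 weeks and of 0.250 (wt) and 0.236 (ob/ob) at 14 weeks. Over the 15 libraries it ranged only from 0.125 to 0.294. The difference of mean log2 ratios (of RPM + 0.5) between the genotypes was 0.024 at 9 weeks (exact permutation p = 0.8) and -0.037 at 14 weeks (exact permutation p = 0.743), both two-sided.

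The ratio of miR-141-3p to miR-200c-3p, neighbours on chromosome 6 with different seeds, varied more, up to 45.6 in wt replicate 4 at 9 weeks. At 9 weeks its median was 19.5 (wt) and 19.6 (ob/ob), and at 14 weeks it was 21.4 (wt) and 42.4 (ob/ob). The log2 difference at 14 weeks was 0.89 (exact permutation p = 0.114, 0.600 after adjustment over the 6 planned ratio tests), with ob/ob replicate 1 among the wt libraries. At 9 weeks it was 0.15 (exact permutation p = 0.657). A shift of miR-141-3p against its neighbour was therefore not shown at this number of libraries.

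miR-141-3p and miR-200a-3p share a seed but not a locus. Their ratio, looked at after the values were seen, had medians of 9.39 (wt) and 12.2 (ob/ob) at 9 weeks and of 6.15 (wt) and 10.1 (ob/ob) at 14 weeks. The log2 differences were 0.68 (exact permutation p = 0.143) and 0.73 (exact permutation p = 0.171), and the groups overlapped at both ages.

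**Figure D3:**
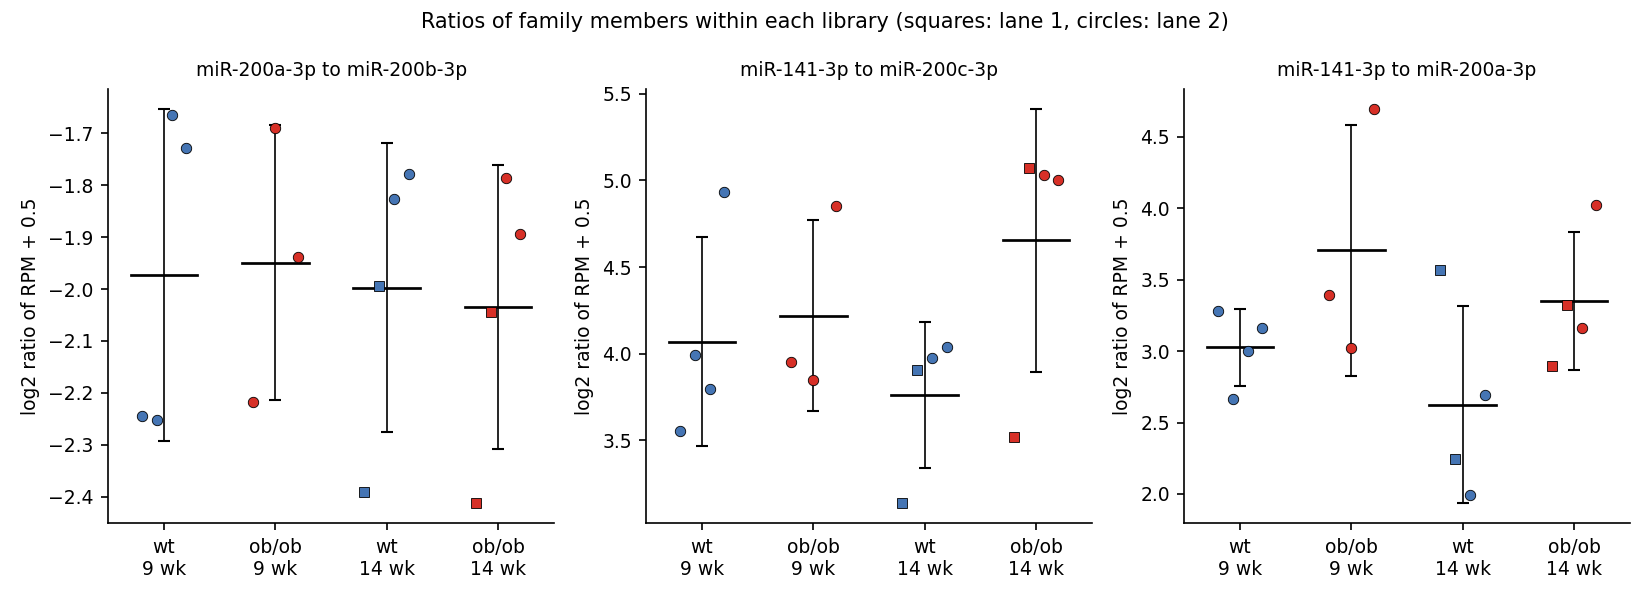
Log2 ratio of 2 members within each library (vertical axes, RPM + 0.5) for the chromosome 4 pair, the chromosome 6 pair and the pair with the same seed, with mean ± SD by group. The genotypes overlap in all 3 ratios at both ages. The mean log2 ratio of miR-141-3p to miR-200c-3p was 0.89 higher in ob/ob at 14 weeks, and that of miR-200a-3p to miR-200b-3p differed by 0.024 at 9 weeks and by -0.037 at 14 weeks.

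miR-200b-5p, the 5p arm of the Mir200b hairpin, was close to the detection limit. It was listed at 0 in wt replicates 3 and 4 at 9 weeks and in wt replicates 1 and 3 at 14 weeks, while the remaining 11 libraries held 0.0590 to 0.282 RPM, equal to 1 to 16 reads. All 7 ob/ob libraries held it, and each was deeper than the wt libraries of its age. A count of 0 allows a level of 3 reads. In the wt libraries at 0 this is 0.213 and 0.210 RPM at 9 weeks and 0.330 and 0.127 RPM at 14 weeks. The ob/ob values were 0.0590 to 0.193 RPM at 9 weeks and 0.136 to 0.203 RPM at 14 weeks. Only the limit of 0.127 RPM lies below the ob/ob values of its age, so the other zeros do not separate the genotypes. The 5p arm was at most 1.37% of its 3p arm in any library. Without a filter on low values it did not pass the test (adjusted p = 0.553 at 9 weeks and 0.618 at 14 weeks, limma).

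Summed over the 5 arms, the family had medians of 60.0 RPM in wt (51.5 to 71.2) and 70.8 RPM in ob/ob (54.5 to 87.5) at 9 weeks. At 14 weeks the medians were 50.4 RPM in wt (22.7 to 56.4) and 90.8 RPM in ob/ob (53.1 to 103.6), with the lowest ob/ob library within the wt range. At 14 weeks miR-141-3p made up a median of 53.1% of this sum in wt libraries against 65.8% in ob/ob, and at 9 weeks 62.4% against 63.7%.

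miR-205-5p and miR-375-3p showed opposite patterns at 14 weeks. miR-205-5p was listed at 0 in all 4 wt libraries and at 0.817, 0.377, 0.661 and 0.679 RPM in the ob/ob libraries. miR-375-3p was listed at 1.43, 0.462, 0.422 and 0.581 RPM in the wt libraries and at 0 in all 4 ob/ob libraries. Each was the single miRNA of the 248 with its pattern, 0.403% in each direction, and no miRNA had such a pattern at 9 weeks.

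Both are rare, and both stayed under the level required for the main test (1 RPM in 4 libraries). The ob/ob values of miR-205-5p equal 36, 37, 39 and 35 reads in replicate order, a nearly constant number although the depth of these libraries differed from 44.0 to 98.1 M reads. A level of 3 reads, the limit that a count of 0 allows, corresponds to 0.0769 to 0.330 RPM in the wt libraries. The lowest ob/ob value, 0.377 RPM, lies above these limits, though close to that of wt replicate 1 (0.330 RPM). Whether the reads of miR-205-5p scale with depth was not tested. The wt values of miR-375-3p equal 13, 18, 10 and 14 reads, and the limit in the ob/ob libraries is 0.0306 to 0.0681 RPM, below every wt value. These limits cover counting error only. An exact 0 can also be a failed assignment of reads: miR-93-5p, at 248 to 523 RPM in group means, is itself listed at 0 in a wt library of 14 weeks.

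At 9 weeks neither pattern was complete. miR-205-5p was 0.721, 0.773 and 0.502 RPM in ob/ob, or 24, 20 and 17 reads, and 0 in 3 wt libraries and 0.569 RPM (8 reads) in wt replicate 3. Its ob/ob libraries thus resembled those of 14 weeks, and wt replicate 3 lay within their range. miR-375-3p was 0.391, 0.888 and 1.06 RPM in ob/ob (13, 23 and 36 reads), and 0.439, 0.67, 0 and 0 RPM in wt (10, 9, 0 and 0 reads). Here the ob/ob libraries were on the higher side, the reverse of 14 weeks.

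**Figure D4:**
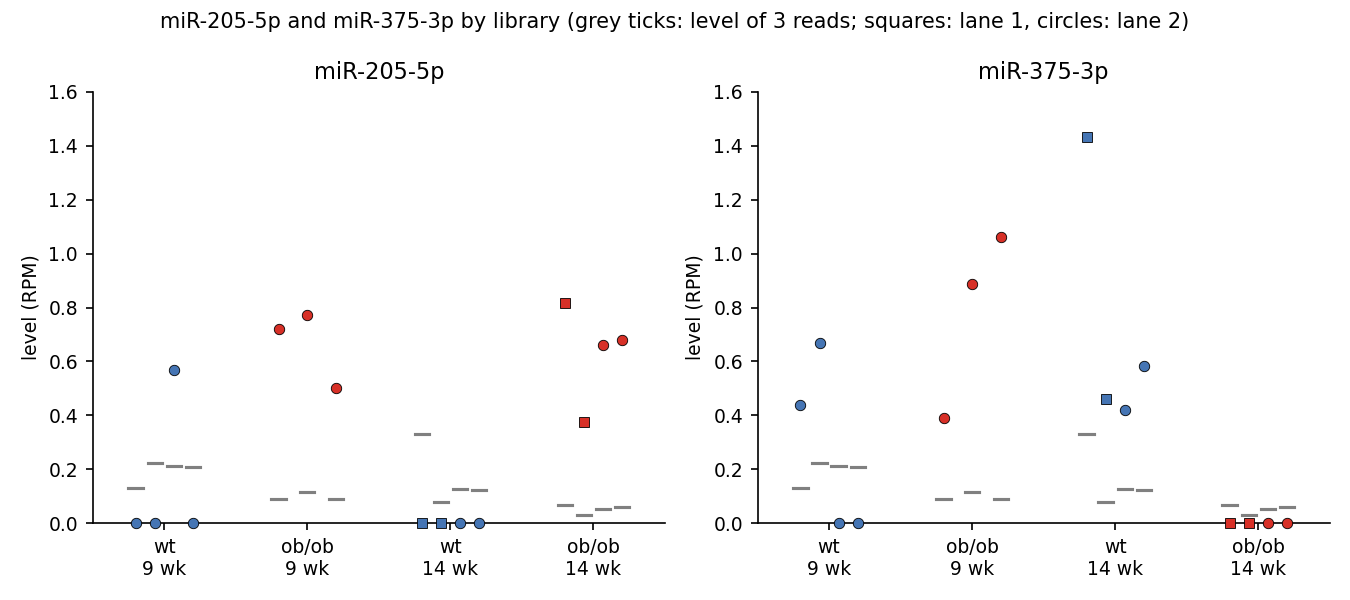
Level of miR-205-5p and miR-375-3p in RPM (vertical axes) in every library, with grey ticks at the level that 3 reads correspond to in that library. At 14 weeks miR-205-5p is at 0 in the 4 wt libraries and at 0.377 to 0.817 RPM in ob/ob, and miR-375-3p is at 0 in the 4 ob/ob libraries and at 0.422 to 1.43 RPM in wt.

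With no filter on low values, miR-205-5p was higher in ob/ob at 14 weeks (limma, adjusted p = 0.0012, and 0.0023 after rescaling, where 20.2% of all miRNAs passed), and miR-375-3p was lower (0.0071, and 0.0331 after rescaling). In that fit 14.5% of all 248 miRNAs passed, 10.5% higher and 4.03% lower. Two-sided exact permutation tests on RPM gave p = 0.0286 for each, the smallest that 4 against 4 libraries can give, and 0.0571 after adjustment over the 4 tests of both miRNAs at both ages. Within lane 1 the adjusted p (limma) was 0.0745 for miR-205-5p and 0.0580 for miR-375-3p, and within lane 2 it was 0.0115 and 0.0200. Fitted fold changes are not given, since they would rest on the constant added to 0. The limma p-values of these 2 miRNAs depend on that constant too, whereas the exact tests do not.

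At 9 weeks miR-205-5p passed narrowly without the filter (limma, adjusted p = 0.0459, against 28.6% of all miRNAs in that fit and 4.03% as higher), and the exact permutation p was 0.0857. Leaving out wt replicate 3 lowered the adjusted p to 0.0136, and leaving out any other library ended the call, at up to 0.122. A pseudocount of 0.1 also ended it (adjusted p = 0.0513, limma). miR-375-3p did not pass (limma, adjusted p = 0.152, and exact permutation p = 0.143). The smallest exact p that 4 against 3 libraries allow is 0.0286. The ob/ob effect on miR-375-3p differed between the ages in the interaction test without the filter (limma, adjusted p = 0.0487, as 1 of 4 miRNAs that passed, 1.61% of the 248). The call was lost after rescaling (adjusted p = 0.112, limma), with a pseudocount of 1 (adjusted p = 0.0526, limma) and, at up to 0.146, when any of 11 of the 15 single libraries was left out. For miR-205-5p the same test gave an adjusted p of 0.683 (limma).

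Markers of other cell types moved with genotype beside these values. Of the epithelial list of 12 miRNAs, 8 were listed and 5 tested: miR-141-3p was higher at 14 weeks and, after rescaling, also at 9 weeks, and the others did not pass. The fifth tested miRNA of that list, miR-203-3p, known from skin and other stratified epithelia, averaged 18.3 ± 1.80 RPM (wt) and 16.0 ± 2.80 RPM (ob/ob) at 9 weeks (SD, n = 4 and 3), and 20.8 ± 7.75 and 21.8 ± 1.26 RPM at 14 weeks (SD, n = 4 each; adjusted p = 0.479 and 0.805, limma). The summed level of the 8 listed epithelial miRNAs ranged at 9 weeks from 69.7 to 87.7 RPM in wt and from 70.8 to 108 RPM in ob/ob libraries, and from 33.5 to 79.5 and 77.3 to 125 RPM at 14 weeks. The median log2 difference of the 5 tested was -0.20 at 9 weeks and 0.48 at 14 weeks, beside -0.51 and 0.20 over all miRNAs tested.

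In sum, the hepatocyte list was higher in every ob/ob library than in every wt library of its age. Its 5 miRNAs summed to 1156 to 2273 RPM in wt against 4035 to 5597 RPM in ob/ob at 9 weeks, and to 1154 to 1738 against 3296 to 6950 RPM at 14 weeks. Most of the sum was miR-192-5p, with group means of 1556 (wt) and 4494 RPM (ob/ob) at 9 weeks, and 1317 and 5212 RPM at 14 weeks. miR-122-5p overlapped between the genotypes at 14 weeks, at 15.2 to 101 RPM in wt and 36.9 to 79.4 RPM in ob/ob. As single miRNAs, 18.1% of all listed were higher in ob/ob without overlap at 14 weeks as deposited. Of the 4 tested miRNAs of the hepatocyte list, 2 rose at each age as deposited, where 5.03% of all miRNAs at 9 weeks and 11.7% at 14 weeks were higher. After rescaling 3 rose at 9 weeks and 2 at 14 weeks, beside 11.3% and 15.5% of all miRNAs. At 14 weeks miR-194-5p, whose hairpins lie in clusters with those of miR-192 and miR-215, was called as deposited (adjusted p = 0.0352, limma) and not after rescaling (adjusted p = 0.12, limma), while miR-215-5p was called only after rescaling (adjusted p = 0.0457, against 0.117 as deposited, limma). miR-192-5p, an abundant miRNA of liver and gut epithelium, rose at both ages, by 1.57 ± 0.27 (adjusted p = 0.00529, limma) and 1.94 ± 0.30 (adjusted p = 0.00256, limma). miR-122-5p, the defining miRNA of hepatocytes, rose at 9 weeks by 2.02 ± 0.55 (adjusted p = 0.0244, limma), and at 14 weeks its difference was 0.57 ± 0.55 (adjusted p = 0.551, limma). Of the other marker lists, as deposited, 1 of 2 endothelial, 2 of 4 mesenchymal and 1 of 2 myeloid miRNAs fell at 9 weeks, where 32.4% of all miRNAs fell and the median log2 difference was -0.51. None of 3 lymphocyte miRNAs passed, and none of these lists had a call at 14 weeks, where 15.2% of all miRNAs passed. After rescaling the only calls in these lists were 1 mesenchymal miRNA at each age, lower at 9 and higher at 14 weeks. Of all miRNAs 21.5% at 9 weeks and 28.6% at 14 weeks passed on that scale in either direction. Of the erythroid list of 3 miRNAs, only miR-144-5p was listed and tested. At 9 weeks, where 5.03% of all miRNAs were higher, it rose by 3.59 ± 0.29 (adjusted p = 0.000266, limma). At 14 weeks, where 11.7% were higher, it rose by 4.06 ± 0.35 (adjusted p = 0.000108, limma). The part of such RNA in the miR-141-3p and miR-205-5p values was not tested. In these bulk cell preparations fewer cells of a type and less RNA per cell cannot be told apart.

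As regulators reported for Keap1, 3 of a list of 4 miRNAs were measured and tested: miR-200a-3p, miR-141-3p and miR-24-3p. As deposited, none passed at 9 weeks, where 37.4% of all miRNAs did, and miR-141-3p alone passed at 14 weeks, where 15.2% did. After rescaling miR-141-3p passed at both ages, beside 21.5% and 28.6% of all miRNAs. miR-24-3p averaged 3.35 ± 2.40 RPM (wt) and 5.66 ± 1.02 RPM (ob/ob) at 9 weeks (SD, n = 4 and 3), and 3.84 ± 3.09 and 3.53 ± 0.621 RPM at 14 weeks (SD, n = 4 each; adjusted p = 0.337 and 0.863, limma). The summed level of the 3 ranged at 9 weeks from 34.9 to 54.7 RPM in wt and from 43.8 to 67.0 RPM in ob/ob libraries, and from 17.6 to 41.3 and 35.3 to 79.7 RPM at 14 weeks, with overlap at both ages. miR-7a-5p, the remaining name on the list, was not analysed here.

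Among 7 regulators reported for Nfe2l2, 3 were measured and tested. miR-34a-5p, a p53-induced miRNA, alone passed and rose at both ages, as deposited and after rescaling, from 5.54 ± 1.72 to 13.6 ± 1.51 RPM at 9 weeks (SD, n = 4 and 3; adjusted p = 0.00984, limma) and from 4.76 ± 1.17 to 18.0 ± 4.56 RPM at 14 weeks (SD, n = 4 each; adjusted p = 0.00256, limma). Over all miRNAs tested as deposited, 37.4% passed at 9 weeks (5.03% as higher) and 15.2% at 14 weeks (11.7% as higher). The rescaled values gave 21.5% at 9 weeks (11.3% as higher) and 28.6% at 14 weeks (15.5% as higher). miR-142a-5p and miR-93-5p did not pass at either age. Set beside these, miR-200a-3p, the member most often reported for Keap1, had group means of 3.69 to 4.99 RPM.

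The longest annotated 3′ untranslated region of mouse Keap1 (972 bases, GENCODE vM21) was searched on the transcript strand for matches to the seeds. The motif CAGTGTT, complementary to the AACACUG seed of miR-200a-3p and miR-141-3p, had 0 matches. Its first part, CAGTGT, had none, nor had its last part, AGTGTT, both of which overlap it. The motif CAGTATT, complementary to the AAUACUG seed of miR-200b-3p and miR-200c-3p, had 0 matches, and likewise AGTATT within it. Among the first 972 bases of the 3′ untranslated regions of 11292 genes that are at least that long, the 5 motifs occurred in 12.4%, 37.7%, 31.1%, 9.44% and 26.2% of genes, in the order named. These letters are not in this window, and nothing follows from it about Keap1 control, which was not measured.

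Among 108 miRNAs with a mean of at least 10 RPM and no value of 0, those most like the mean of the 4 family 3p arms across the 15 libraries, centred on each age, were miR-26b-5p (Pearson r = 0.91), miR-148b-3p (r = 0.89) and miR-30e-5p (r = 0.88). The same 3 led after rescaling, with r of 0.87, 0.80 and 0.79. All libraries share their scaling across miRNAs, so part of such likeness is common to many of them. At 9 weeks miR-26b-5p averaged 3871 ± 605 RPM in the 4 wt libraries (SD) against 3472 ± 442 RPM in the 3 ob/ob libraries. At 14 weeks the averages were 3434 ± 1241 and 4926 ± 513 RPM (SD, n = 4 each). It passed the test at neither age.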

How the data were processed

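TruSeq Small RNA libraries were sequenced on an Illumina HiSeq, per the labels' protocols. The submitters' processing notes name bcl2fastq, cutadapt, GRCm38.p5 and mm10, but no aligner, counter or annotation (not given in the sources used here). Values deposited by the authors, 1 table for each age, were taken as RPM, a unit inferred from the values: those above 0 were whole multiples of 1 step per library within 0.1 reads in 99.2% of 3423 cases. The step gave the depth and the reads behind each value. The tables hold RPM and not counts, so limma 3.58.1 (R 4.3.3, trend and robust empirical Bayes) was run on log2(RPM + 0.5) for each age alone, with Benjamini-Hochberg adjustment over all miRNAs tested and a threshold of 0.05. That scale understates fold changes of rare miRNAs. A miRNA was tested with at least 1 RPM in at least 3 libraries at 9 weeks or 4 at 14 weeks. Of the 7 members, 4 passed this filter at each age, and miR-200b-5p, miR-205-5p and miR-375-3p were tested in a fit without it. The difference between ages was the interaction in a fit of all 15 libraries. Within-library ratios were compared with two-sided exact permutation tests, adjusted over 6 tests. Other pseudocounts (0.1 and 1), rescaling (over miRNAs with a mean of at least 5 RPM), a GC correction (218 miRNAs with a mature sequence), lanes, a replicate block and left-out libraries were tried. Same-numbered replicates did not deviate together (r from -0.23 to 0.18), so the numbers were not taken as pairs. The procedure was also run on simulated data with independent normal noise and without the depth differences of these libraries. No result given here rests on that run. Named miRNAs were all members, up to 3 of each list by smallest p and the 3 most alike. Members, lists and tests were chosen with earlier results of these data known. Positions and transcripts are from GENCODE vM21.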

Additional observations from a re-analysis of the deposited data

Results flagged for a closer look

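Of the 19 groups of values with 4 libraries that were screened for a library far from the rest, 3 were marked. Chance marks about 1 in 20 where values are normally distributed, which values near 0 are not. miR-141-3p was 27.9 RPM in ob/ob replicate 1 at 14 weeks, against 63.9 to 68.5 RPM in the other 3 ob/ob libraries. miR-205-5p was 0.569 RPM in wt replicate 3 at 9 weeks, against 0 in the other wt libraries of that age. With the rest at 0, any value above 0 would have been marked. miR-375-3p was 1.43 RPM in wt replicate 1 at 14 weeks, the shallowest library with 9.08 M reads and the lowest sum of listed RPM, against 0.422 to 0.581 RPM in the others.

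The ob/ob effect on miR-375-3p differed between the ages in the fit without the filter on low values (limma, adjusted p = 0.0487). The call was lost after rescaling (adjusted p = 0.112), and with any of 11 of the 15 single libraries left out, at up to 0.146. All 3 ob/ob libraries held it at 9 weeks and none of the 4 at 14 weeks, while 2 of 4 wt libraries held it at 9 weeks and all 4 at 14 weeks.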

How the results depend on the processing

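The number of miRNAs called at 9 weeks (67) was 38 after rescaling, 39 with the GC correction and 33 with rescaling and no filter. At 14 weeks it was 26, and 48 after rescaling, 48 with all 15 libraries in 1 fit, 50 with rescaling and no filter, 1 in lane 1, 51 in lane 2, 59 without the first replicate of each genotype, 55 with rescaling and ob/ob replicate 1 left out, and 13 to 46 with single libraries left out. With the replicate number as a block it was 32 at 9 weeks, and 2 for the difference between ages. Without the filter, the block also ended the calls of miR-205-5p at 9 weeks (adjusted p = 0.155) and of miR-375-3p in the difference between ages (adjusted p = 0.160). Members called at 9 weeks went from 0 to 1 after rescaling (miR-141-3p), without the filter (miR-205-5p) and with both (miR-205-5p). At 14 weeks they went from 1 (miR-141-3p) to 0 with a pseudocount of 0.1, the GC correction, no robust fit or lane 1 alone, and to 0 to 1 with single libraries left out. Without the filter, with or without rescaling, 2 other members were called (miR-205-5p and miR-375-3p). There miR-141-3p no longer passed (limma, adjusted p = 0.0528, and 0.0557 with rescaling). For the difference between ages, 4 miRNAs with 1 member were called without the filter, and 0 to 3 miRNAs with single libraries left out. Signs turned after rescaling for miR-200b-3p (0.20) and miR-200a-3p (0.17) at 9 weeks, and, in the difference between ages, for miR-200c-3p (-0.52) and miR-205-5p (-0.016). With the GC correction they turned for miR-200a-3p at 9 weeks (0.025), for miR-200b-3p (-0.11) and miR-200c-3p (-0.0089) at 14 weeks, and in the difference between ages for miR-200b-3p (-0.096), miR-141-3p (-0.044) and miR-200c-3p (-0.60). A pseudocount of 0.1 turned the log2 ratios of miR-200b-5p to miR-200b-3p at 14 weeks (0.0029) and of miR-200a-3p to miR-200b-3p at 9 weeks (-0.014) and 14 weeks (0.047). With single libraries left out, values ranged through 0 for miR-200b-3p (-0.60 to 0.067), miR-200a-3p (-0.71 to 0.086) and miR-200c-3p (-0.023 to 0.51) at 9 weeks, for miR-200a-3p at 14 weeks (-0.048 to 0.75), and for the differences between ages of miR-200c-3p (-0.20 to 0.33) and miR-205-5p (-0.047 to 0.35). The same held for the log2 ratios of miR-141-3p to miR-200c-3p at 9 weeks (-0.17 to 0.44) and of miR-200a-3p to miR-200b-3p at 9 weeks (-0.11 to 0.16) and 14 weeks (-0.17 to 0.090). The cause was not tested. The reads behind miR-200b-5p, miR-205-5p and miR-375-3p, at most 39 in a library, limit what can be said of them.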
